A study of Mus musculus with 2 samples.

Results

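Transcripts of lysosomal proteins and of the vacuolar proton pump were followed in nucleoplasmic RNA of mouse macrophages. The genes were taken by symbol alone, with no filter on level. They comprise 23 named genes of lysosomal enzymes, membrane proteins and transcription factors, every gene whose symbol begins with Atp6v0 or Atp6v1, and Atp6ap1 and Atp6ap2. With a protein-coding transcript required, 48 of 21901 such genes in the annotation met the rule. Atp6v1fnb met it by its symbol only and is given no role here.

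All values come from 1 condition with 2 replicates, numbered as biological replicates in the labels, and no control, so they are levels and differences between replicates, not a response to treatment. The cells were primary bone marrow-derived macrophages (BMDM) of the inbred mouse strain C57BL/6J, with sex and age not collected. Both replicates had met Lipid A, the lipid part of bacterial endotoxin that activates Toll-like receptor 4, at 100 ng/ml for 12 hours. They were then kept without it for 12 hours and given 100 ng/ml again for the last 30 minutes. RNA of the nucleoplasmic fraction, the soluble part of the nucleus, was depleted of ribosomal RNA and sequenced. Library building began from 500 ng RNA in replicate 2 and 1 µg in replicate 1, with a labelled size range of 250 to 400 in both. The replicates carry the same donor identifier. No label used here says that they were separate cultures, so differences between them may be partly technical.

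Lysosomes are acidic organelles in which hydrolases digest what macrophages engulf or recycle. Their acid comes from the vacuolar ATPase (V-ATPase), a rotary pump whose V1 sector hydrolyses ATP in the cytosol and whose V0 sector carries protons through the membrane. The transcription factors TFEB, TFE3 and MITF of the MiT/TFE family bind E-box elements with the core CACGTG in promoters of many lysosomal genes. In a nuclear fraction, RNA that is being made or processed is measured together with finished mRNA, and a level in it is not a level of protein.

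Levels are in TPM, a transcript abundance per length that is scaled to the same total in each library and allows genes to be ordered. Genes with a protein-coding transcript together held 299600 TPM in replicate 2 and 204000 TPM in replicate 1. A higher TPM of a single gene in replicate 2 is to be read beside this shift of the whole class. Both libraries had 10 of 10 macrophage markers at 10 TPM or more, among them Lyz2 (lysozyme) at 1953 TPM in replicate 2 and 1023 TPM in replicate 1, and Adgre1 (F4/80) at 640.5 and 416.0 TPM in these replicates. No marker of B, T and NK, dendritic, mast, fibroblast, melanocyte or neutrophil cells reached 1 TPM in both libraries, and Trac was not matched. Of 8 osteoclast markers, Nfatc1 and Acp5 passed 1 TPM in both, while Calcr and Ocstamp were listed at 0. Summed osteoclast marker levels were 13.8 TPM in replicate 2 and 11.6 TPM in replicate 1, against 3588 and 2148 TPM for the macrophage markers. Gene counts totalled 20675319 in replicate 2 and 23846030 in replicate 1, so the limit that a count of 0 allows, 3 counts, was 0.145 and 0.126 CPM (counts scaled to a fixed total) in these libraries. Mitochondrially encoded mRNAs made up 6.85% of the counts of replicate 2 and 2.81% of those of replicate 1.

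Most of the 48 genes were well represented. In both libraries 41 of 48 (85.4%) reached 1 TPM, beside 42.1% of the 21901 genes with a protein-coding transcript, and the same 41 had passed 0.5 TPM, beside 46.5%. At 5 TPM there were 38 of 48 (79.2%), beside 24.9% of all. At 10 TPM there were 37 of 48 (77.1%), beside 15.7% of all. At 100 TPM there were 10 of 48 (20.8%), beside 1.21% of all. The median of the 48 genes was 35.6 TPM in replicate 2 and 27.9 TPM in replicate 1, whereas the median of all genes was 0.34 and 0.29 TPM. The 48 genes together made up 2.14% of the counts of replicate 2, with a 95% Wilson interval of 2.13 to 2.14, and 2.07% of those of replicate 1, with an interval of 2.07 to 2.08. As the RNA comes from bulk cells, fewer cells with a transcript and less of it per cell cannot be told apart.

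**Figure D1:**
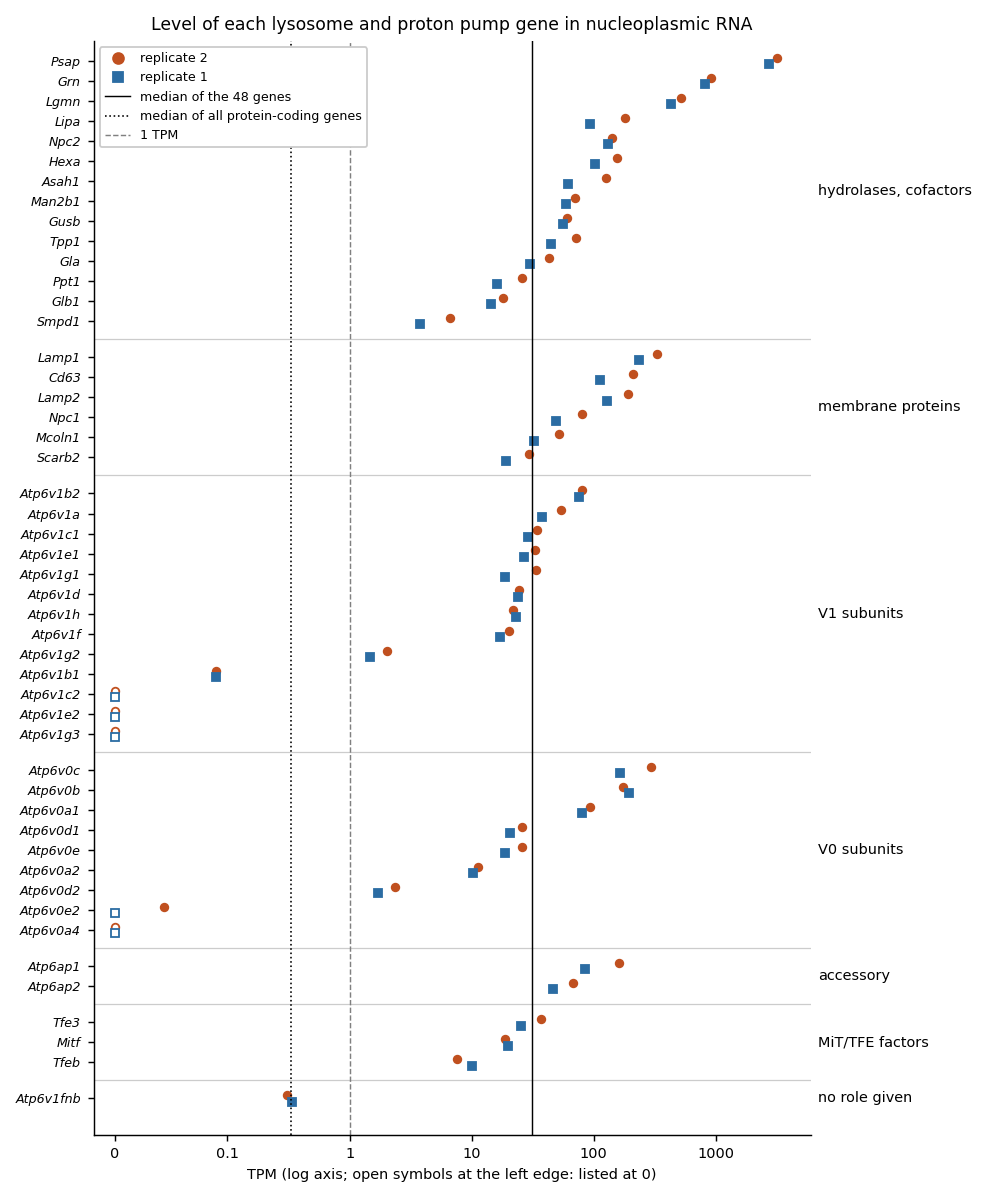
TPM of each of the 48 genes in replicate 2 (circles) and replicate 1 (squares) on a log axis, grouped by role; open symbols at the left edge are genes listed at 0. The solid line marks the median of the 48 genes at 31.4 TPM and the dotted line the median of all protein-coding genes at 0.33 TPM, and most lysosomal genes and at least 1 gene for each pump subunit lie to the right of 10 TPM.

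Among soluble hydrolases and their cofactors, all 14 genes exceeded 1 TPM and 13 exceeded 10 TPM in both libraries. Psap encodes prosaposin, the precursor of the saposins that help hydrolases reach sphingolipids. It lies on chromosome 10 (60277627 to 60302597, plus strand, mm10) and had 3189 TPM in replicate 2 and 2747 TPM in replicate 1. By its mean of 2968 ± 313 TPM (SD, n = 2) it ranked 6 among the 21901 genes. Its 211566 counts in replicate 2 and 254491 in replicate 1 were 47.9% and 51.5% of all counts of the 48 genes in these libraries, about as many as those of the other 47 genes together.

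Transcripts were quantified in 2 deposited tables per library, 1 made from alignments (alignment-based) and 1 made from the read files (read-based). Psap was made up of a pair of coding transcripts that begin 6834 bases apart and differ in the first coding exon. Psap-202, from the upstream start, held 47.9% of the gene's TPM in replicate 2 and 60.9% in replicate 1, and Psap-203, from the downstream start, held 48.4% and 36.3%. The leader thus differed between the libraries in the alignment-based table, while the read-based table had Psap-202 ahead in both, with 48.9% against 45.2% in replicate 2 and 61.4% against 28.1% in replicate 1. The coding parts of their first exons are shown because they are where the transcripts can be told apart. They are in mm10 (GENCODE M21), on the plus strand, at chr10:60277743-60277782 for Psap-202 and at chr10:60284501-60284531 for Psap-203, with the start codon in capitals.
Psap-202: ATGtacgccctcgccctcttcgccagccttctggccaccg
Psap-203: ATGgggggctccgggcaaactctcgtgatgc

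Grn (progranulin, a secreted and lysosomal protein cut into granulins) followed with 919 TPM in replicate 2 and 813 TPM in replicate 1. Lgmn (legumain, an asparaginyl endopeptidase) had 519.5 and 432.6 TPM in these replicates. These 3 genes kept the order Psap, Grn, Lgmn in both libraries, and each gap between neighbours exceeded the difference between replicates. Smpd1 (acid sphingomyelinase) was the lowest of the class, with 6.65 TPM in replicate 2 and 3.80 TPM in replicate 1. The highest mean of the class was 568-fold the lowest.

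Next came genes of lipid handling and glycoside breakdown. Lipa (acid lipase, which frees cholesterol and fatty acids) had 178.6 TPM in replicate 2 and 94.0 TPM in replicate 1. Npc2 (a soluble cholesterol carrier) had 141 and 131 TPM, and Hexa (the alpha subunit of beta-hexosaminidase) had 154 and 103 TPM in these replicates. The ranges of Lipa, Npc2 and Hexa overlapped, so their order is not resolved by 2 libraries. Asah1 (acid ceramidase) had 126 TPM in replicate 2 and 61.5 TPM in replicate 1, and Man2b1 (alpha-mannosidase) had 69.6 and 58.9 TPM. Gusb (beta-glucuronidase) had 60.4 and 56.3 TPM, and Tpp1 (tripeptidyl peptidase 1) had 71.0 and 44.4 TPM in replicates 2 and 1. The ranges of Man2b1, Gusb and Tpp1 likewise overlapped. Gla (alpha-galactosidase A) had 42.7 TPM in replicate 2 and 29.8 TPM in replicate 1. Ppt1 (palmitoyl-protein thioesterase 1) had 25.6 and 16.0 TPM, and Glb1 (beta-galactosidase) had 18.1 and 14.4 TPM. Exons of Ppt1 overlap Cap1, which held 3060 counts in replicate 2 and 2865 in replicate 1 against 1514 and 1260 for Ppt1. No source used here says whether strand was used in counting, so Ppt1 is uncertain.

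All 6 lysosomal membrane proteins exceeded 10 TPM in both libraries. Lamp1, a heavily glycosylated protein that lines the membrane, led with 327 TPM in replicate 2 and 235 TPM in replicate 1. Cd63 (a tetraspanin of late endosomes and lysosomes) had 209 and 112 TPM, and Lamp2 (the second LAMP glycoprotein) had 192.5 and 128 TPM in these replicates. The ranges of Cd63 and Lamp2 overlapped, both below that of Lamp1, and their means were 161 ± 68.7 and 160.4 ± 45.4 TPM (SD, n = 2). Npc1 (the membrane cholesterol exporter that works with NPC2) had 79.9 TPM in replicate 2 and 48.7 TPM in replicate 1. Mcoln1 (TRPML1, a cation channel) had 51.7 and 32.7 TPM. Scarb2 (LIMP-2, which carries beta-glucocerebrosidase to lysosomes) was lowest at 29.4 TPM in replicate 2 and 19.2 TPM in replicate 1. A separate gene with the symbol Cd63-ps had 39 counts in replicate 2 and 15 in replicate 1, beside 4928 and 3707 for Cd63 itself.

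Lamp2 is known for alternative last exons that give proteins with different membrane anchors and tails, and was described here after its values were seen. Lamp2-202 held 51.4% of TPM in replicate 2 and 49.4% in replicate 1, and Lamp2-201 held 33.3% and 31.0%, so their order was the same in both libraries. The coding parts of their last exons are shown with the stop codon in capitals, in mm10 (GENCODE M21) on the minus strand, at chrX:38421712-38421851 for Lamp2-202 and chrX:38405432-38405571 for Lamp2-201. Both are 140 bases long and identical at 60.0% of positions in a global alignment that allowed gaps.
Lamp2-202: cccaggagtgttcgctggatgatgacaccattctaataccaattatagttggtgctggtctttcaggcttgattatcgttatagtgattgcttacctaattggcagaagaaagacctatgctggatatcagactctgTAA
Lamp2-201: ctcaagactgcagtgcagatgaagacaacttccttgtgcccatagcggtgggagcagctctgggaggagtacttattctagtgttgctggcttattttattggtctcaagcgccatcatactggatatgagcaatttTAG

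The V-ATPase subunits taken by the rule were lower as a group than the other lysosomal proteins taken by it. The median mean level was 22.4 TPM over 22 subunit genes and 79.1 TPM over the 20 other lysosomal proteins. The contrast does not extend to lysosomal genes outside the rule. There the median was 21.8 TPM for 23 other hydrolases and activators and 16.8 TPM for 12 ion channels and transporters. The subunit median includes genes close to 0, and over the 14 subunit genes at 10 TPM or more in both libraries it was 28.1 TPM. Counts of the subunit and accessory genes taken by the symbol rule were 51684 in replicate 2 and 51991 in replicate 1. They made up 0.250% of the total of replicate 2, with a 95% Wilson interval of 0.248 to 0.252. In replicate 1 they made up 0.218%, with an interval of 0.216 to 0.220. These shares leave out the subunit gene Tcirg1, described below, with 14327 counts in replicate 2 and 35921 in replicate 1. The shares and their order between the replicates hold only without it.

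In the V1 sector, 9 of 13 genes reached 1 TPM in both libraries. Atp6v1b2 (subunit B, part of the ring that binds ATP) led with 79.9 TPM in replicate 2 and 76.0 TPM in replicate 1. Atp6v1a (subunit A, the catalytic subunit of the ring) had 54.4 and 37.7 TPM. Atp6v1c1 (subunit C, which bridges V1 and V0) had 34.1 TPM in replicate 2 and 29.2 TPM in replicate 1. The ranges of these 3 genes did not overlap. Atp6v1e1 (subunit E of the peripheral stalks) had 33.3 and 26.7 TPM, and Atp6v1g1 (subunit G of the same stalks) had 33.6 and 18.9 TPM in replicates 2 and 1. Atp6v1d (subunit D of the central rotor) had 24.6 TPM in replicate 2 and 23.9 TPM in replicate 1, and Atp6v1h (subunit H, a regulator of ATP hydrolysis) had 22.0 and 22.9 TPM. Atp6v1f (subunit F, the partner of D in the rotor) had 20.4 and 17.0 TPM. The range of Atp6v1g1 overlapped those of Atp6v1c1, Atp6v1e1, Atp6v1d, Atp6v1h and Atp6v1f, and that of Atp6v1e1 also overlapped that of Atp6v1c1. The 8 V1 genes at 10 TPM or more thus spanned a 4.18-fold range of means, from 18.7 to 77.9 TPM, and each of the 8 subunits A to H had 1 gene in it.

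In the V0 sector, 7 of 9 genes reached 1 TPM in both libraries. Atp6v0c (subunit c, the proteolipid of the rotating ring) had 296 TPM in replicate 2 and 164 TPM in replicate 1. Atp6v0b (the related proteolipid c″) had 174 and 195.6 TPM. The ranges of these proteolipid genes overlapped, and both lay above every other V0 gene taken by the symbol rule in both libraries. Processed copies of Atp6v0c took few counts, 12 in replicate 2 and 18 in replicate 1 for Atp6v0c-ps2 and none for Atp6v0c-ps1, beside 9000 and 8052 for Atp6v0c. Atp6v0a1 (the first form of subunit a, which holds the proton half-channels) had 92.9 TPM in replicate 2 and 80.0 TPM in replicate 1. Atp6v0d1 (subunit d, which joins the ring to the rotor) had 25.8 and 20.7 TPM, and Atp6v0e (subunit e) had 26.0 and 18.7 TPM. Atp6v0a2, the form of subunit a known from the Golgi apparatus and endosomes, had 11.2 TPM in replicate 2 and 10.3 TPM in replicate 1. The 6 V0 genes at 10 TPM or more spanned a 21.4-fold range of means. The accessory protein genes Atp6ap1 and Atp6ap2, whose products act in assembly of the pump, had 161 and 67.1 TPM in replicate 2 and 85.4 and 46.0 TPM in replicate 1.

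For 7 subunits the rule took more than 1 gene, and in 7 of 7 the same paralog led in both libraries. Atp6v1b1, the subunit B known from kidney and inner ear, had 2 counts in replicate 2 and 4 in replicate 1, whereas Atp6v1b2 had 4912 and 5671. Atp6v1c2, Atp6v1e2, Atp6v1g3 and Atp6v0a4 had 0 counts in both libraries of the alignment-based table, which allows up to 3 counts. The read-based table gave Atp6v1g3 25 estimated counts in replicate 2 and 17 in replicate 1, at 0.246 and 0.091 TPM, above that limit in both, and gave Atp6v1c2 0 and 3 estimated counts. Atp6v0e2 had 1 count in replicate 2 and 0 in replicate 1. The read-based table listed Atp6v0e2 at 1.86 TPM in replicate 2 and 0.894 TPM in replicate 1, with 98.7% and 100% of it in the retained-intron transcript Atp6v0e2-203. Minor paralogs were detected at 1 TPM or more in both libraries for subunits a, G and d. Atp6v0a2 was 10.8% of the TPM of the 3 subunit a genes taken by the rule in replicate 2 and 11.4% in replicate 1. Atp6v1g2, known from neurons, was 5.73% of the TPM of its 3 paralogs in replicate 2 and 7.28% in replicate 1. It overlaps Nfkbil1, which held 111 and 201 counts against 78 and 84 for Atp6v1g2, and is therefore uncertain. Atp6v0d2, known from osteoclasts and macrophages, had 2.36 TPM in replicate 2 and 1.70 TPM in replicate 1, which was 8.38% and 7.59% of the TPM of both d genes. Atp6v1fnb had 4 counts in replicate 2 and 6 in replicate 1.

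**Figure D2:**
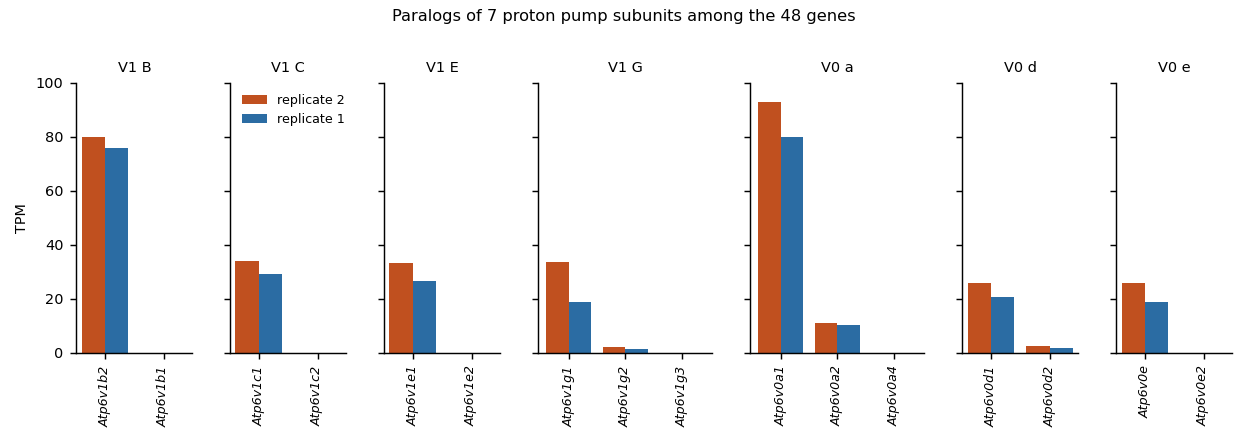
TPM of the paralogs of each of 7 V-ATPase subunits, 1 panel a subunit, with bars for replicate 2 (left) and replicate 1 (right) and the same axis from 0 in every panel. In each panel the leftmost gene leads in both libraries, and Atp6v0a2 at 11.2 and 10.3 TPM is the highest of the minor paralogs.

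The symbol rule does not take Tcirg1, which encodes a further form of subunit a known from osteoclast and macrophage lysosomes. Tcirg1 had 286 TPM in replicate 2 and 531 TPM in replicate 1, above Atp6v0a1 and Atp6v0b in both and above Atp6v0c in replicate 1, so that with it included the leading gene of subunit a would be Tcirg1 in both libraries. Its scaled counts differed between the replicates at a log2 ratio of -1.13, replicate 2 over replicate 1, which is beyond 2-fold.

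The transcription factor genes were expressed at lower levels than most of the enzyme and membrane protein genes taken by the rule. Tfe3 had 37.0 TPM in replicate 2 and 25.2 TPM in replicate 1. Mitf had 18.9 and 19.7 TPM, and Tfeb had 7.53 and 10.1 TPM in these replicates. In these alignment-based values the order Tfe3, Mitf, Tfeb held in both libraries with no overlap of their ranges. The read-based table gave Tfe3 22.5 TPM in replicate 2 and 11.5 TPM in replicate 1, Mitf 19.2 and 13.1 TPM, and Tfeb 7.85 and 12.4 TPM, so there the order was not held in replicate 1 and the range of Mitf lay within that of Tfe3. The related gene Tfec, which the symbol rule does not take, had 28.3 TPM in replicate 2 and 16.5 TPM in replicate 1.

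The wider pathway was described with 75 further genes, of which 72 reached 1 TPM and 47 reached 10 TPM in both libraries. Of 23 other hydrolases and activators all reached 1 TPM. Acp2 (lysosomal acid phosphatase) had 163 TPM in replicate 2 and 121 TPM in replicate 1, while Acp5 (tartrate-resistant acid phosphatase) was lowest at 3.14 and 2.96 TPM. Among 12 ion channels and transporters, Slc11a1 (NRAMP1, a metal ion transporter of phagosomes) had 126.8 TPM in replicate 2 and 105.6 TPM in replicate 1. Clcn7 (a chloride-proton exchanger) had 87.4 and 103.4 TPM, and Mfsd8 (a lysosomal membrane protein) was lowest of this class at 5.53 and 4.05 TPM.

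Enzyme sorting was represented by 10 genes, of which 9 reached 1 TPM in both libraries. M6pr (the cation-dependent mannose 6-phosphate receptor) had 96.6 TPM in replicate 2 and 52.7 TPM in replicate 1, and Sumf1 (which activates sulfatases) had 36.3 and 25.6 TPM. Sort1 (sortilin) was lowest at 1.98 and 0.96 TPM. Of 10 assembly and regulation genes of the pump, 9 reached 1 TPM, led by Dmxl1 (a subunit of the RAVE-like assembly complex) at 38.3 TPM in replicate 2 and 29.1 TPM in replicate 1 and by Oxr1 at 24.5 and 15.0 TPM. Tldc2 was lowest with 1 count in replicate 2 and 2 counts in replicate 1. For the kinase complex mTORC1 and its lysosomal platform, 17 of 18 genes reached 1 TPM. Fnip2 (a folliculin partner) had 115.5 and 125.8 TPM and Rragc (a Rag GTPase) had 32.6 and 29.1 TPM, whereas Rragb (another Rag GTPase) had 0.15 TPM in replicate 2 and 0.40 TPM in replicate 1. Median mean levels were 21.8 TPM for the other hydrolases, 16.8 TPM for channels and transporters, 15.3 TPM for sorting, 11.0 TPM for the mTORC1 group and 10.8 TPM for assembly and regulation.

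Agreement between the replicates was measured on counts. Where the mean count was at least 100, the log2 ratio of scaled counts, replicate 2 over replicate 1, was taken with a 95% counting interval, and 40 of the 48 genes qualified. None of the 40 lay beyond 2-fold, which is close to the share among all 9675 genes at that count. Of these, 3.49% lay beyond 2-fold, 1.67% with the higher and 1.82% with the lower value in replicate 2. The 9675 are genes of any type, not only those with a protein-coding transcript. This comparison of 1 library with 1 library has no test and no p-value. The ratio was above 0 in 27 of 40 genes (67.5%), beside 51.8% of all genes. The median ratio was 0.06 for the 40 genes and 0.02 for all genes, and the median size of the ratio was 0.18 and 0.26. Over the 8645 genes with a protein-coding transcript these medians were 0.03 and 0.25.

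The highest ratio was that of Atp6ap1, whose 8445 counts in replicate 2 and 5914 in replicate 1 gave 0.71 (counting interval 0.66 to 0.76). For Asah1, 7738 counts in replicate 2 and 5574 in replicate 1 gave 0.67 (0.62 to 0.72). For Lipa the counts were 13631 and 9931 and the ratio was 0.65 (0.62 to 0.69). Together with Cd63, at 0.61 (0.55 to 0.67), these were the 4 of 40 genes beyond 1.5-fold, beside 16.2% of all genes. The lowest ratio was that of Tfeb, with 341 counts in replicate 2 and 526 in replicate 1, at -0.43 (-0.63 to -0.23). For Atp6v0b the counts were 2811 and 4283 in these replicates and the ratio was -0.41 (-0.48 to -0.34). For Man2b1 they were 5621 and 7246, and the ratio was -0.17 (-0.22 to -0.12). The counting interval lay above 0 for 19 genes, below 0 for 11 and across 0 for 10. The same count over all genes is not given here, and these intervals narrow as counts rise. The count therefore does not set the 40 genes apart from other genes.

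By role, the ratio was above 0 in 6 of 6 membrane protein genes, 2 of 2 accessory genes, 8 of 14 hydrolase and cofactor genes, 5 of 7 V0 genes, 5 of 8 V1 genes and 1 of 3 transcription factor genes. These counts were the same with DESeq2 size factors and with library size, while read-based estimated counts gave 5 of 6 for membrane proteins and 4 of 7 for V0 genes and changed no other class. The median ratio was 0.26 over the 20 lysosomal proteins other than the pump and 0.03 over 15 V-ATPase subunits. Replicate 2 was also the library with the smaller starting quantity and the larger share of mitochondrial mRNA, and their part in these ratios was not tested. TPM gave another picture of the same libraries, since 36 of the 40 genes had the higher TPM in replicate 2 and 9 of these had the lower scaled counts there. On the log2(TPM + 0.1) scale the median ratio was 0.46 for the 40 genes and 0.26 for all genes. The summed TPM of all genes with a protein-coding transcript was also higher in replicate 2, and its part in the TPM ratios was not tested.

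**Figure D3:**
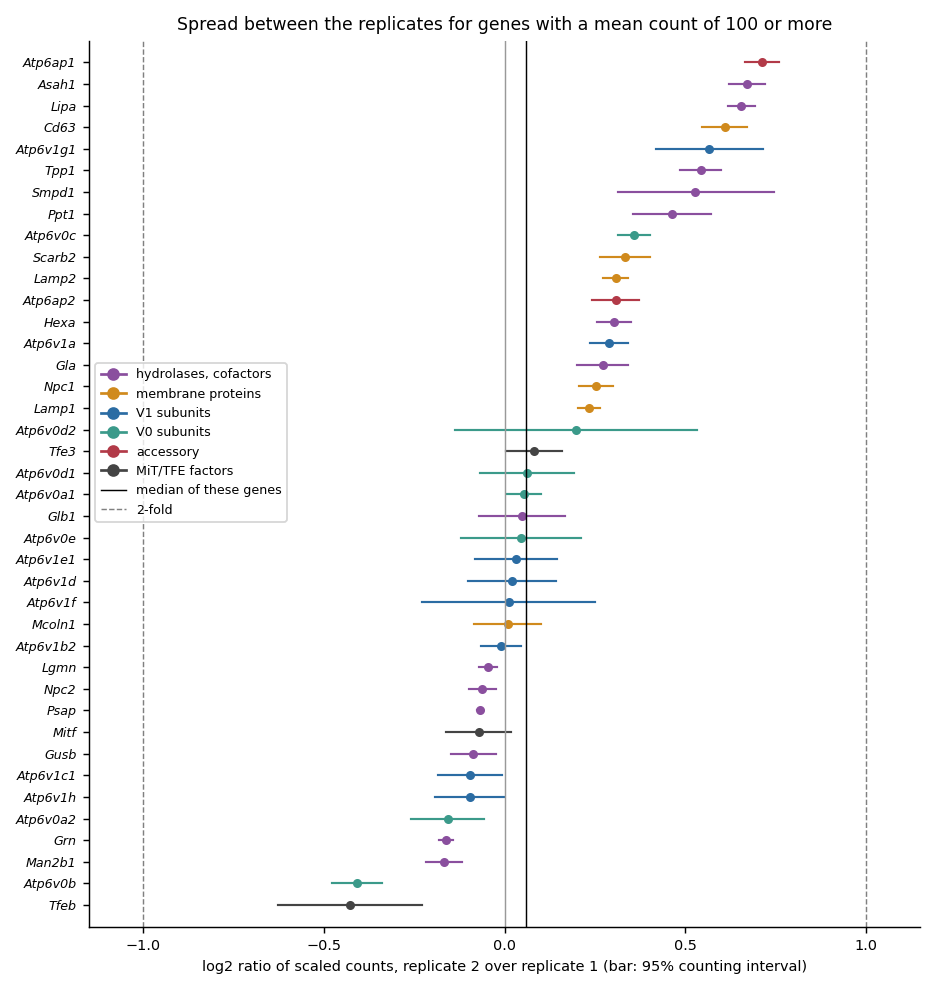
Log2 ratio of scaled counts, replicate 2 over replicate 1, for the 40 genes whose mean count was at least 100, with 95% counting intervals and colours by role. All points lie between the dashed lines at 2-fold, from Atp6ap1 at 0.71 to Tfeb at -0.43, and the solid line marks the median of 0.06.

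Transcript make-up was then compared over all genes. Over 35 of the genes with 2 or more transcripts and 10 TPM or more, the median share of a gene's TPM in protein-coding transcripts was 80.0% in replicate 2 and 75.9% in replicate 1. Over all 3280 genes of this kind the medians were 74.8% and 69.2%. For retained-intron transcripts the median share was 8.51% in replicate 2 and 13.2% in replicate 1 over the 35 genes, and 14.0% and 19.4% over all. The share of retained-intron transcripts was 20% or more by the mean of both libraries in 15 of 35 genes and 1508 of 3280. The read-based table gave protein-coding shares of 68.7% and 69.6% for the 35 genes in replicates 2 and 1, and 64.7% and 57.1% for all.

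In 28 of 35 genes (80.0%) the same transcript led in both tables in each library, beside 62.9% of all genes. Within the alignment-based table, replicates 2 and 1 shared their leading transcript in 28 of 35 genes (80.0%), beside 82.3% of all. A transcript that is not protein-coding led in both libraries in 1 of 35 genes (2.86%), beside 11.3% of all. That gene was Atp6v1d, where the retained-intron transcript Atp6v1d-202 held 50.5% of TPM in replicate 2 and 50.2% in replicate 1, and the coding transcript Atp6v1d-201 held 34.5% and 26.7%. In counts, which are not divided by length, the coding transcript of Atp6v1d was ahead, with 811.5 in replicate 2 and 852.7 in replicate 1 against 191.5 and 253.3 for the retained-intron transcript, which is 775 bases long against 3667.

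**Figure D4:**
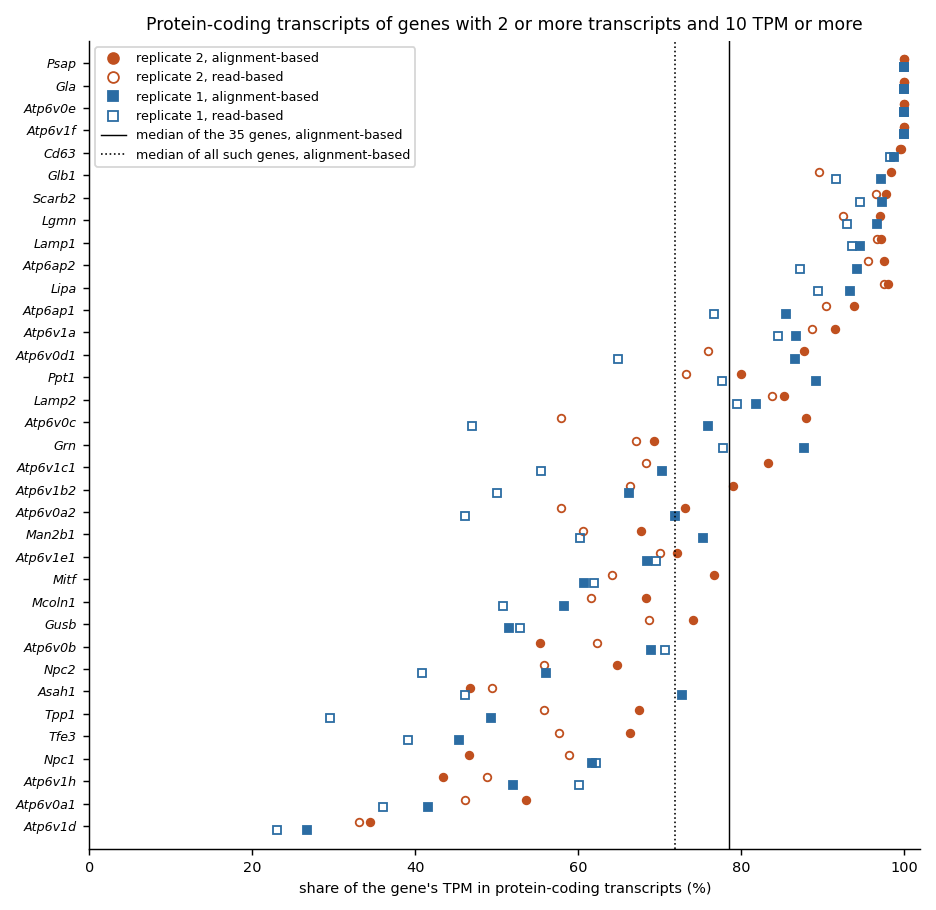
Share of each gene's TPM in protein-coding transcripts, in percent, for 35 genes in replicate 2 (circles) and replicate 1 (squares), filled for the alignment-based and open for the read-based table. In the alignment-based table shares run from 100% in Psap, Gla, Atp6v0e and Atp6v1f to 34.5% and 26.7% in Atp6v1d. The solid line (78.5%, the 35 genes) lies above the dotted one (71.9%, all such genes).

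In Lgmn, a gene chosen for this description after its values were seen, the leader differed between the libraries as it did in Psap, and here both tables had the same order. Lgmn-202 held 70.1% of TPM in replicate 2 and 40.6% in replicate 1, and Lgmn-201, which begins 16044 bases upstream, held 27.0% and 56.1%. In the read-based table Lgmn-202 held 59.0% in replicate 2 and 26.4% in replicate 1.

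Other genes had a leader that differed between tables or was not protein-coding in 1 library. In Asah1 the retained-intron transcript Asah1-203 held 51.8% of TPM in replicate 2 and 24.3% in replicate 1, and the coding Asah1-201 held 46.8% and 72.7%. In Npc1 the retained-intron transcript Npc1-206 held 49.1% in replicate 2 and 29.3% in replicate 1, against 46.7% and 61.7% for the coding Npc1-201. By TPM both genes thus had a retained-intron leader in replicate 2 and a coding leader in replicate 1, and the read-based table had the coding transcript ahead in both libraries. In counts of replicate 2 the coding transcript was ahead, with 4190 against 3517 in Asah1 and 5183 against 2181 in Npc1. In Atp6v0b the retained-intron transcript Atp6v0b-204 held 40.1% in replicate 2 and 24.8% in replicate 1, against 39.4% and 31.4% for the coding Atp6v0b-201. In Atp6v1h the retained-intron transcript Atp6v1h-206 held 29.3% and 16.1%, against 27.7% and 39.3% for the coding Atp6v1h-201, in replicates 2 and 1. In counts of replicate 2, Atp6v0b-201 was ahead with 1484 against 826.1 for Atp6v0b-204. The retained-intron Atp6v1h-206 stayed ahead there, with 825.0 against 310.3 for Atp6v1h-201. It was also ahead in counts of replicate 1, with 661.6 against 636.3. Atp6v0a1 was led by the coding Atp6v0a1-202 with 43.0% in replicate 2 and 40.1% in replicate 1, and its processed transcripts, which have no annotated reading frame, held a mean of 52.4% of TPM together. In alignment-based counts, Atp6v0a1-202 held 3989 of the gene's 6745 in replicate 2 and 4459 of 7452 in replicate 1. The processed transcript with the most counts, Atp6v0a1-209, held 1329 and 2241. In the read-based table Atp6v0a1-202 led in replicate 2 with 27.8%. There the processed transcript Atp6v0a1-205 led in replicate 1, with 20.6% against 15.2% for Atp6v0a1-202.

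The transcription factor genes were also divided among transcripts. Tfe3 has 14 transcripts in the annotation, and its leader was the coding Tfe3-205 in replicate 2, with 35.0% of TPM, and the retained-intron Tfe3-212 in replicate 1, with 17.9%. The read-based table named 2 other leaders, so no leading transcript of Tfe3 was resolved. Tfeb has 15 transcripts, and Tfeb-212 led with 48.2% in replicate 2 and 32.4% in replicate 1, whereas the read-based table gave it 16.7% and 6.21%. Mitf was led by Mitf-202 with 69.0% in replicate 2 and 50.5% in replicate 1, followed by the retained-intron Mitf-206 with 23.2% and 39.2%. The read-based table had Mitf-202 ahead in replicate 2, with 41.8% against 35.6%. In replicate 1 it had Mitf-206 ahead, with 38.1% against 28.7%. In alignment-based counts Mitf-202 was ahead in both libraries. It had 1686 in replicate 2 and 1794 in replicate 1, against 138.5 and 338.6 for Mitf-206. Mitf-201, which begins 184734 bases downstream of Mitf-202, was listed at 0 in replicate 2 and at 0.05 TPM in replicate 1, whereas the read-based table gave it 7.76% and 12.1% of the gene's TPM. Among the minor pump paralogs, Atp6v1g2 was led by the coding Atp6v1g2-201 with 56.4% in replicate 2 and 53.4% in replicate 1, while the read-based table named other coding transcripts, and Atp6v1b1 had too few counts to describe.

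In Mcoln1 TPM and counts gave different ratios, and it was named for this after its values were seen. Its counts were 1784 in replicate 2 and 2034 in replicate 1, a scaled log2 ratio of 0.01 (-0.08 to 0.10), while its log2 TPM ratio was 0.66. The effective length of the gene was 1243 bases in replicate 2 and 1602 in replicate 1. The transcript Mcoln1-204, 363 bases long, held 25.6% of TPM in replicate 2 and was listed at 0 in replicate 1.

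Promoter windows of 300 bases, from 250 before to 50 after each annotated start (RefSeq, GRCm38.p6), were found for 40 of the 48 genes. The windows of Asah1, Atp6v0a2, Atp6v0d2, Atp6v1b2, Atp6v1c1, Atp6v1g1, Atp6v1h and Npc1 were not used here. The E-box core CACGTG, which reads the same on both strands, was present in 9 of 40 genes (22.5%), beside 8.91% of 17492 genes of the same table and 12.6% of those at 1 TPM or more in both libraries. The longer palindrome TCACGTGA, which contains the core, was present in 5 of 40 (12.5%). Its shares were 1.41% of all genes and 2.62% of those at 1 TPM or more in both libraries. The 10-base palindrome of the CLEAR element, which extends TCACGTGA by 1 base on each side, was present in 0 of 40. Its shares were 0.469% of all genes and 0.985% of those at 1 TPM or more. A match is a string of letters in a window and not a bound site.

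The stretches that hold the core are shown for the 9 genes because their windows hold this string. The core is in capitals, with 6 bases kept on each side, and each stretch is written 5′ to 3′ on the strand of its gene. Lamp1 (chr8:13159094-13159157, plus) holds 4 copies within 64 bases. Mcoln1 (chr8:3500442-3500485, plus), Gla (chrX:134601188-134601238, minus) and Atp6v0b (chr4:117887336-117887371, minus) hold 2 copies each. Glb1 (chr9:114401024-114401041, plus), Lgmn (chr12:102439130-102439147, minus), Atp6v1a (chr16:44139379-44139396, minus), Atp6v0d1 (chr8:105566056-105566073, minus) and Atp6v0e (chr17:26676393-26676410, plus) hold 1 copy each.
Lamp1: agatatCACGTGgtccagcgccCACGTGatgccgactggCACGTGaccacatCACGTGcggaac
Mcoln1: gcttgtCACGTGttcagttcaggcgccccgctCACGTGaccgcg
Gla: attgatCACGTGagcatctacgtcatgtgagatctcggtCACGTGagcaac
Atp6v0b: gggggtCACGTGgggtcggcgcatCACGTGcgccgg
Glb1: ctgagtCACGTGgcctac
Lgmn: gtctgtCACGTGgtccat
Atp6v1a: ttaaatCACGTGataggc
Atp6v0d1: tgcggtCACGTGagacgc
Atp6v0e: gccgatCACGTGagcctc

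Of the 15 copies, those of Lamp1, Mcoln1, Glb1, Lgmn and Atp6v0b lay between 71 and 15 bases before the start, those of Gla at 227 and 194 bases before it and that of Atp6v1a at 131. The copies of Atp6v0d1 and Atp6v0e began within 3 bases of the start. These are RefSeq starts, which can differ from the GENCODE starts used for transcripts. The Lgmn stretch lies downstream of the first base of Lgmn-201 (102439813), and the Mcoln1 stretch spans that of Mcoln1-201 (3500457). All 9 genes reached 1 TPM in both libraries, from Glb1 at a mean of 16.2 TPM to Lgmn at 476 TPM, with a median of 42.2 TPM. The 31 genes without the core in their window had a median of 30.0 TPM, and 24 of the 31 reached 1 TPM in both. That median includes genes listed at 0, so it is not set against that of the 9. Psap, the highest of all, was among the 31. The 9 genes include enzymes, membrane proteins and subunits of both pump sectors.

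**Figure D5:**
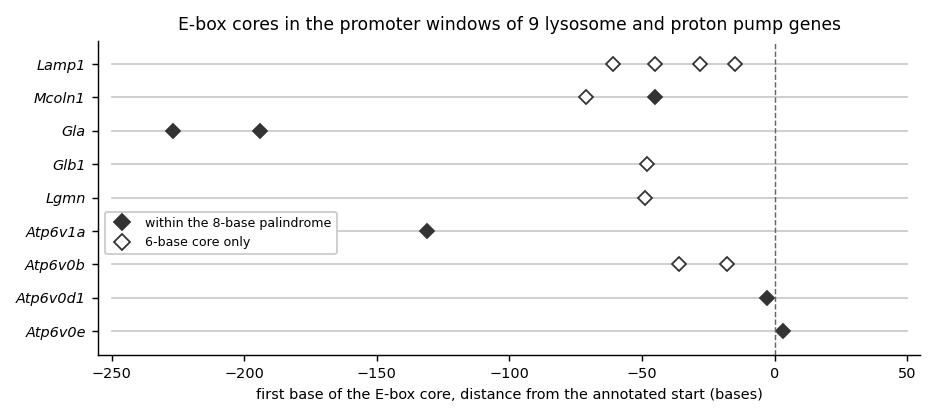
Position of the first base of each E-box core relative to the annotated start (dashed line, in bases) in the promoter windows of 9 genes; filled symbols are cores within the 8-base palindrome. The 4 copies of Lamp1 lie between 61 and 15 bases before the start, and the copies of Gla and Atp6v1a lie farthest upstream.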

How the data were processed

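Nucleoplasmic RNA was measured in 2 libraries of 1 group, replicates 2 and 1, on mm10 with GENCODE M21 per the file headers. The authors deposited expected counts (estimated counts that share ambiguous reads), TPM and FPKM per gene and transcript from alignments, and estimated counts and TPM per transcript from the read files. TPM and FPKM are normalised to effective length per the file headers. Credibility bounds in the deposited tables were not used. Not given in the sources used here are the aligner, the quantification tools and the strand setting.

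The members and lists were chosen with earlier results of these data known. Expected counts were rounded to whole numbers, rows that are not genes were kept out of library sizes, and ratios came from counts scaled with edgeR 4.0.16 (TMM factors 1.003 in replicate 2 and 0.997 in replicate 1, prior count 0.5), at a mean count of 100 or more. Counting intervals were exact (Clopper-Pearson) at 95%. These intervals, and the floor of 3 counts, describe counting error alone, because reads that carry no molecular identifier need not be independent molecules. With 1 group no test was possible and no p-value is given. Described were every gene with its level, the 3 largest ratios in each direction, transcripts of genes whose leader was not protein-coding in a library or differed between tables, and the highest 2 and lowest gene of each pathway class. One gene that this rule names is not reported here. Of the 48 genes, 12 overlap exons of another gene with counts, and in 4 (Ppt1, Atp6v1g2, Atp6v1c2 and Atp6v0a4) the other gene holds more. Transcript starts and exons came from the GENCODE M21 annotation and promoter windows from RefSeq (GRCm38.p6). As alternatives, library size and DESeq2 1.42.0 size factors, other thresholds, pseudocounts and motifs, FPKM, read-based values and single libraries were tried. The calculations were tested on simulated data. Software was R 4.3.3, Python 3.11.15, pandas 2.3.3, numpy 2.4.6, Biopython 1.88, scipy 1.17.1 and matplotlib 3.10.9.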

Additional observations from a re-analysis of the deposited data

How the results depend on the processing

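The count of 41 genes at 1 TPM or more was the same at 0.5 TPM, by FPKM, in the read-based table, in each library alone and without Atp6v1fnb, a setting chosen after seeing the data. It was 38 at 5 TPM and 37 at 10 TPM. The median level of 31.4 TPM became 46.1 TPM over genes at 1 TPM or more only and 22.1 TPM in the read-based table, and was 35.6 TPM without replicate 1 and 27.9 TPM without replicate 2. The median log2 ratio of 0.06 became 0.46 on the log2(TPM + 0.1) scale and 0.20 on that scale less the median of all genes, the last chosen after seeing the data. DESeq2 size factors, library size, other count filters, another prior count, read-based counts and the removal of overlapping genes gave 0.05 to 0.09. The count beyond 2-fold was 0 under each scaling and with read-based counts, and 4 genes lay beyond 1.5-fold. The median protein-coding share of 78.5% became 69.8% in the read-based table and 82.0% over genes at 1 TPM or more. The count of 9 genes with the E-box core was the same for TCACGTG, 5 for TCACGTGA and 0 for the 10-base palindrome. The cause of these shifts was not tested beyond the change each setting makes. No paired analysis was possible because there is only 1 group. With 2 libraries an SD is imprecise, and at this depth a gene with 3 or fewer counts cannot be told from absent.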
